A study of Mus musculus with 20 samples.

Results

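The genes described here are the 8 central genes of the endocannabinoid system in mouse striatum: the receptor gene Cnr1, the synthesis genes Dagla, Daglb and Napepld, and the breakdown genes Faah, Mgll, Abhd6 and Abhd12. They were taken as the rows of the count files whose Ensembl identifier carries 1 of these symbols, which gave 8 of 39179 genes, and all 8 passed the filter on low counts. The study bred a High-Active line of mice for distance travelled in the home cage and kept an unselected Control line from the same starting population, an inter-cross of 8 inbred strains. Striatal RNA was sequenced from 20 male mice of generation 17, about 6.5 months old, 10 of each line, and 5 of the 10 were given saline and the other 5 amphetamine, which makes 4 groups. Each mouse received 1 intraperitoneal injection of the vehicle or of 0.25 mg/kg d-amphetamine sulfate, and the whole bilateral striatum, dorsal and ventral, was taken 2 hours later. Each line is a single breeding population, so selection and genetic drift cannot be told apart in a line difference.

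Endocannabinoids are lipid messengers that neurons make on demand from membrane phospholipids and that act backwards across the synapse, lowering transmitter release through the CB1 receptor. The messenger 2-arachidonoylglycerol is made by diacylglycerol lipases and cleaved by monoacylglycerol lipase and the ABHD hydrolases, whereas anandamide can be made by NAPE-PLD and is cleaved by fatty acid amide hydrolase. In the striatum, medium spiny projection neurons carry CB1 and use this pathway in long-term depression of their cortical inputs.

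The counts on genes ranged from 32388971 to 53710713 per mouse, and the lowest count of any of the 8 genes in any mouse was 239. The labels name each animal's sire and dam: the 10 Control mice came from 8 families and the 10 High-Active mice from 5, so 9 High-Active mice and 4 Control mice had a littermate in the set. The study's methods describe each mouse as coming from a different family, so the families used here rest on the labels alone. Of 10 marker genes of striatal projection neurons, all were detected in every mouse, with median log2 fold changes of -0.13 between the lines and -0.05 between treatments and no gene called by edgeR. All 8 markers of cortical excitatory neurons were also detected in every mouse, with summed levels of 138 to 326 CPM (the count scaled so that all libraries have the same total) in High-Active saline mice, 288 to 823 in Control saline, 595 to 846 in Control amphetamine and 197 to 960 in High-Active amphetamine mice. Of these 8 cortical markers, 4 were called lower in the High-Active line (median log2 fold change -0.75) and 0 were called between treatments (median 0.95), and 2 of 7 oligodendrocyte markers were called higher in the High-Active line (median 0.21). Of 6 astrocyte markers 2 were called higher and 1 lower (median 0.09), and 2 of 6 microglia markers were called lower (median -0.06). Beside these counts, 14.5% of all 14792 genes tested were called between the lines and 0% between treatments.

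Levels between genes were compared per length, as the CPM divided by the exon length in kilobases (RPKM), averaged over the 20 mice. The exon length merges all annotated exons of a gene and can exceed that of the transcript in use, so the order depends on it. Faah had a mean of 37.3 CPM over 7834 bases and Abhd6 39.9 CPM over 2365 bases. Abhd12, a hydrolase of 2-arachidonoylglycerol and of lysophosphatidylserine, had the highest level at 89.6 RPKM, and Cnr1 followed at 50.9. Mgll, which encodes monoacylglycerol lipase, stood at 31.2 RPKM. The hydrolase gene Abhd6, at 16.9, and Dagla, the main neuronal diacylglycerol lipase, at 16.1, overlapped over mice, and Abhd6 was above Dagla in 13 of 20. Faah stood at 4.76 RPKM, the second diacylglycerol lipase gene Daglb at 2.63 and Napepld at 2.03. The ranges of Cnr1 and Mgll and those of Daglb and Napepld overlapped over mice as well, although Cnr1 was above Mgll in 19 of 20 mice and Daglb above Napepld in 20 of 20.

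**Figure D1:**
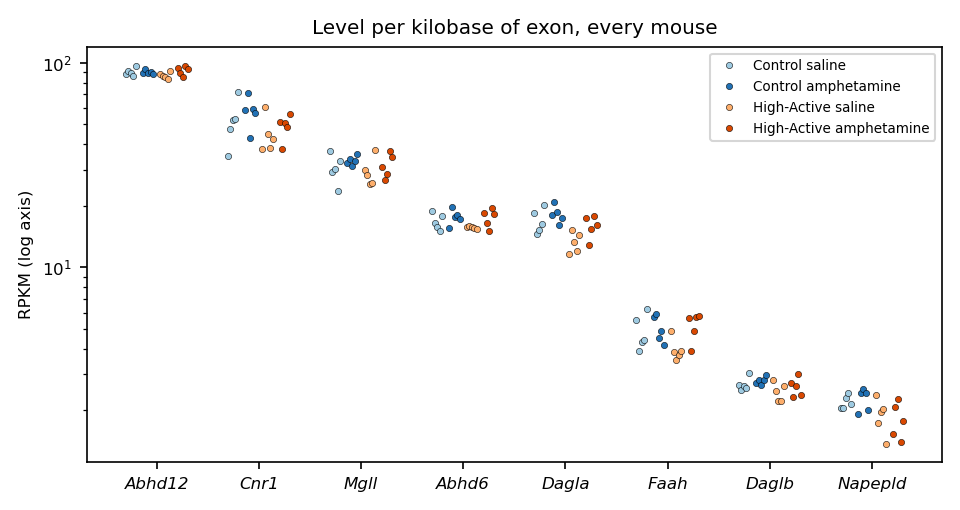
Level of each gene in RPKM on a log axis, with 1 point for each of the 20 mice coloured by group. The genes are ordered by mean level, from Abhd12 at 89.6 to Napepld at 2.03, and the 4 groups of each gene lie close together beside the distance between most genes.

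On GRCm38, Cnr1 lies at chr4:33924593-33948831 on the plus strand, Daglb at chr5:143464584-143505942 (plus), Mgll at chr6:88724412-88828360 (plus) and Abhd6 at chr14:8002902-8056763 (plus). On the minus strand lie Dagla at chr19:10245265-10304877, Napepld at chr5:21662901-21701396, Faah at chr4:115967145-116017926 and Abhd12 at chr2:150832493-150904741. The exons of Daglb share 2309 bases with the oppositely transcribed Rac1, a gene with 246957 counts over the 20 mice, and those of Mgll share 167 bases with the antisense gene Gm26588, which had 1312. The strand setting of the counting is not given in the sources used here, so reads from those stretches may be ambiguous for Daglb and Mgll.

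RefSeq's GRCm38.p6 table held start-site windows for 6 of the 8 genes, 10 windows in all, and the 250 bases before each start were searched on both strands for 5 motifs, which were chosen with the sequences in view. The window of Napepld, the gene called between the lines for which one was held, is shown beside the upstream Cnr1 window and that of Faah, the receptor and the main anandamide-degrading enzyme. Napepld's window (chr5:21701623-21701872, minus strand) was 69.6% G and C and held the YY1 core AAGATGG 3 times, a motif found in 4.49% of the 32851 windows of the same length. The upstream Cnr1 window (chr4:33924014-33924263, plus strand) was 79.2% G and C, against a median of 52.4% over all windows, and held the GC box GGGCGG 5 times. The other Cnr1 windows held no GC box. The Faah window (chr4:116017925-116018174, minus strand) held it 2 times, and 32.74% of all windows held at least 1. The 10 windows, which covered neither Dagla nor Abhd12, held no TATA box TATAAA and no cAMP response element TGACGTCA (12.37% and 1.55% of all windows). The E-box CACGTG stood in 1 window each of Cnr1 and Mgll (6.02%). The sequences run 5′ to 3′ on the gene's strand, with motif matches in capitals.
Napepld: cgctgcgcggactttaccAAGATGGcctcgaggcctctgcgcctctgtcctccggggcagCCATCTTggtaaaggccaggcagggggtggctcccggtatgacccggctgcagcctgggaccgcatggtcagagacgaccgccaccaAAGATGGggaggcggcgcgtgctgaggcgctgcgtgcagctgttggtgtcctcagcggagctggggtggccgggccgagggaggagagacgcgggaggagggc
Cnr1: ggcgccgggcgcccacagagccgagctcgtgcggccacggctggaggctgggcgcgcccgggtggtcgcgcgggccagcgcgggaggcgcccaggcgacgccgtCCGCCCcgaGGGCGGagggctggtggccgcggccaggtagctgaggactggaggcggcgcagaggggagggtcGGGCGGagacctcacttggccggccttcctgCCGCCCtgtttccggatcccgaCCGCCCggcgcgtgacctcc
Faah: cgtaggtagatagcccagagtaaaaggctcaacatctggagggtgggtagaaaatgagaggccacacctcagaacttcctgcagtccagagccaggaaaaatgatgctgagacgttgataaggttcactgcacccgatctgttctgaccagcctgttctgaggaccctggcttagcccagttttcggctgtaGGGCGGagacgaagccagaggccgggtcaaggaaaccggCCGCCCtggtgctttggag

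Between the lines, Dagla and Napepld were lower in High-Active mice, by about the same proportion, and the other 6 genes were not called, in edgeR's quasi-likelihood test. DESeq2 and limma-voom called the same genes, whereas edgeR's likelihood-ratio test with robust dispersions called Dagla and Cnr1 and not Napepld (adjusted p = 0.111). Dagla was 17.2% lower and Napepld 17.0% lower averaged over both treatments. Thus 2 of the 8 genes were called, both in the same direction, beside 14.5% of the 14792 genes tested (2149, of which 1020 were lower). All 8 estimates were negative, with a median log2 fold change of -0.12, whereas over all genes 7445 of 14792 were negative and the median was -0.00093. The 8 signs are not independent, because most of the genes other than Napepld vary together over mice, Cnr1 less than the rest. A lower level in bulk tissue does not tell fewer cells of a type from less RNA per cell.

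Dagla was measured at 106, 84.0, 87.8, 93.8 and 116 CPM in the 5 Control saline mice and at 104, 119, 106, 92.7 and 100.0 in the 5 Control amphetamine mice. High-Active saline mice gave 66.4, 87.5, 75.9, 69.1 and 82.9 CPM, and High-Active amphetamine mice 100.4, 74.0, 88.4, 102 and 92.7. The ranges of the lines overlapped, but 5 of 10 High-Active values fell under the whole Control range and 9 of 10 under its median. The mean was 101 ± 11.7 CPM in Control and 83.9 ± 12.5 in High-Active mice (SD, n = 10 each). The log2 fold change was -0.27 (SE 0.072, adjusted p = 0.0292 in edgeR's quasi-likelihood test with Benjamini-Hochberg adjustment over all genes), and the two-sided permutation test of the same difference in log2 CPM gave p = 0.00645. Both tests took littermates as independent mice, so these p-values may be too small. Dagla held rank 668 by p among all genes tested. It was called without any 1 of the 20 mice, but with counts summed over littermates, so that each family gave 1 library, the difference was -0.22 (SE 0.0694, adjusted p = 0.130). That fit had no term for treatment and summed saline with amphetamine littermates, so it is not the same contrast as the fit over single mice.

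The Dagla difference was called in saline mice and not in amphetamine mice. In saline mice the log2 fold change was -0.35 (SE 0.102, adjusted p = 0.0849 in edgeR's quasi-likelihood test), in a comparison where 3.74% of all genes were called, and 4 of 5 High-Active values were under all Control values (exact permutation p = 0.0159). In amphetamine mice it was -0.19 (SE 0.102, adjusted p = 0.449 in the same test), with 1.3% of all genes called and 3 of 5 High-Active values under all Control values (exact permutation p = 0.0794). The difference between these line effects, the interaction of line and drug, was 0.16 on the log2 scale (SE 0.144, unadjusted p = 0.272 over 20 mice in edgeR's quasi-likelihood test), so the line effect was not shown to depend on treatment. The call in saline mice was lost in 6 of 20 fits that left out 1 mouse (adjusted p up to 0.227).

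Napepld was measured at 8.09, 8.09, 9.06, 9.62 and 8.48 CPM in Control saline mice and at 7.54, 9.55, 9.98, 9.58 and 7.95 in Control amphetamine mice. High-Active saline mice gave 9.37, 6.87, 7.73, 8.02 and 5.43 CPM, and High-Active amphetamine mice 6.07, 8.17, 8.92, 5.51 and 6.97. Again 5 of 10 High-Active values fell under the whole Control range, while the highest High-Active mouse reached into the upper part of the Control range. The spread was wider in the High-Active line, with a mean of 7.31 ± 1.37 CPM against 8.79 ± 0.865 in Control mice (SD, n = 10 each). The log2 fold change was -0.27 (SE 0.0995), and its adjusted p of 0.0989 in edgeR's quasi-likelihood test lay just inside the threshold of 0.1. The permutation test of log2 CPM, which again took littermates as independent mice, gave p = 0.0100. The call was lost in 16 of the 20 fits that left out 1 mouse (adjusted p from 0.0597 to 0.148), and it held with 1 library per family and no term for treatment (-0.29, adjusted p = 0.0971).

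Napepld was not called within either treatment. The line difference was -0.21 in saline mice (SE 0.141, adjusted p = 0.458 in edgeR's quasi-likelihood test) and -0.32 in amphetamine mice (SE 0.141, adjusted p = 0.344). In amphetamine mice 5 of 5 High-Active values lay below the Control median (exact permutation p = 0.0714).

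The receptor gene Cnr1 had a similar estimate with a wider error. It was measured at 226, 305, 338, 342 and 465 CPM in Control saline mice and at 377, 459, 276, 382 and 367 in Control amphetamine mice. High-Active saline mice gave 243, 392, 290, 247 and 272 CPM, and High-Active amphetamine mice 330, 243, 326, 312 and 362. No High-Active value fell under the whole Control range, because 1 Control saline mouse had the lowest value of all 20, but 8 of 10 lay below the Control median. The log2 fold change was -0.23 (SE 0.120, adjusted p = 0.236 in edgeR's quasi-likelihood test), the permutation test gave p = 0.105, and edgeR's likelihood-ratio test with robust dispersions called the difference (-0.24, adjusted p = 0.0706). Cnr1 varied most among mice of the 8 genes (coefficient of variation 20.7% over the 20 mice).

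Among the other genes, Daglb had the smallest error of the synthesis genes, with means of 26.1 ± 1.68 CPM in Control and 24.3 ± 2.49 in High-Active mice (SD, n = 10 each). Its log2 fold change was -0.11 (SE 0.055, adjusted p = 0.230 in edgeR's quasi-likelihood test), although 5 of 10 High-Active values fell under the whole Control range (permutation p = 0.0611). Faah gave -0.13 (SE 0.0976, adjusted p = 0.426), Mgll -0.07 (SE 0.0815, adjusted p = 0.649), Abhd6 -0.05 (SE 0.0525, adjusted p = 0.570) and Abhd12 -0.02 (SE 0.0286, adjusted p = 0.743) in the same edgeR test. Abhd12 varied least, between 236 and 273 CPM over all 20 mice (coefficient of variation 4.07%).

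**Figure D2:**
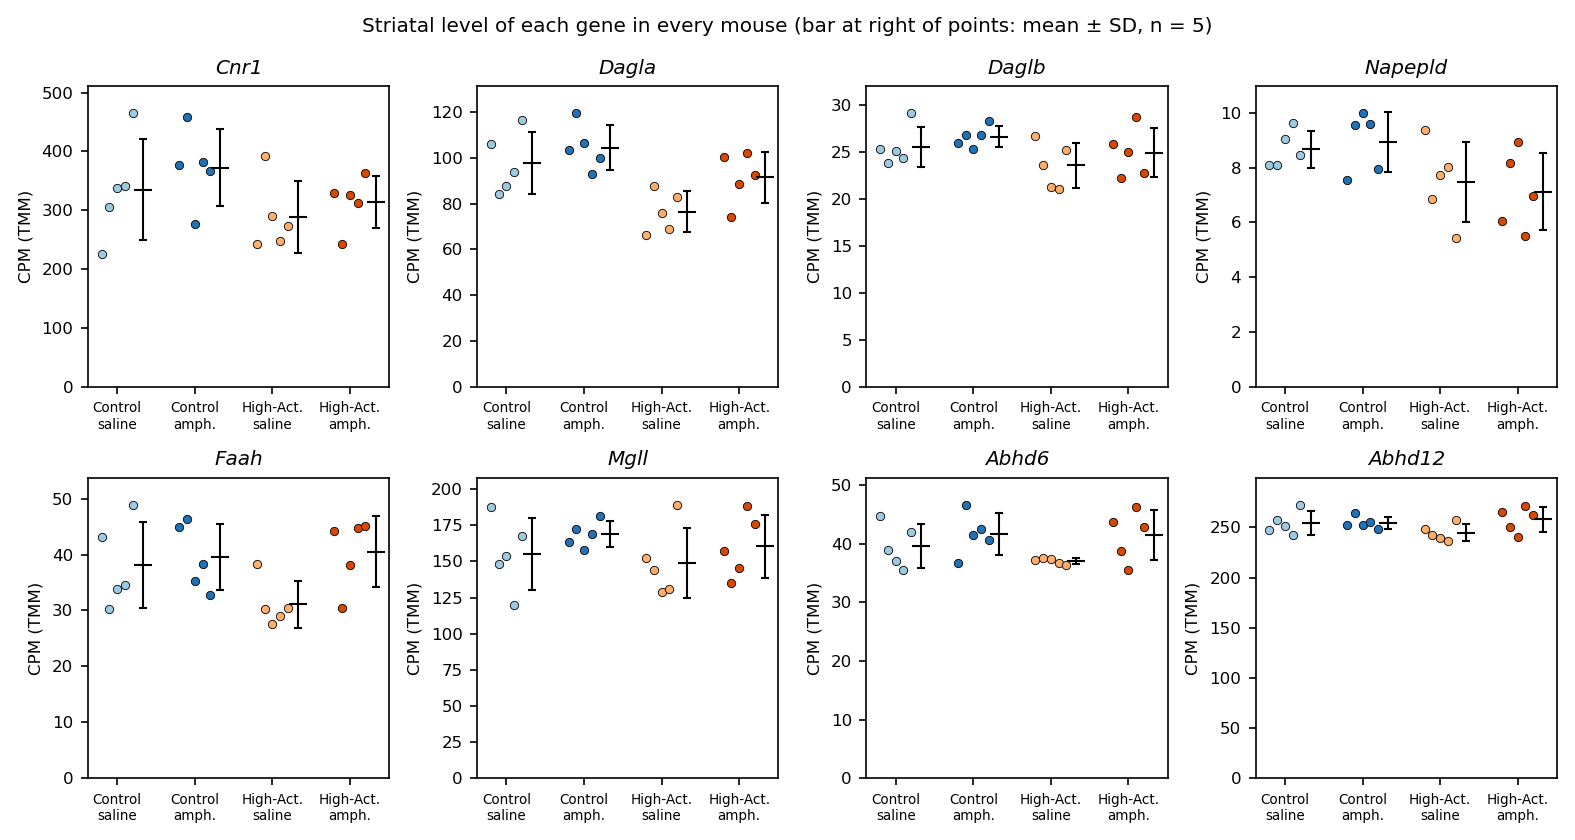
CPM of each of the 8 genes (vertical axis from 0) in every mouse, by group, with the mean ± SD of 5 mice beside the points. Dagla and Napepld were called between the lines in edgeR's quasi-likelihood test, with 5 of 10 High-Active values under the whole Control range for each, and the ranges of the lines overlapped for all 8 genes.

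Faah, which cleaves anandamide, was not called within either treatment. It was measured at 43.1, 30.3, 33.9, 34.6 and 48.9 CPM in Control saline mice and at 44.9, 46.3, 35.3, 38.3 and 32.7 in Control amphetamine mice. High-Active saline mice gave 38.3, 30.3, 27.5, 29.0 and 30.4 CPM, and High-Active amphetamine mice 44.2, 30.5, 38.2, 44.7 and 45.1. In saline mice 3 of 5 High-Active values lay below every Control value, with a log2 difference of -0.30 (SE 0.138, adjusted p = 0.276 in edgeR's quasi-likelihood test, exact permutation p = 0.103), and in amphetamine mice the difference was 0.04 (SE 0.138, adjusted p = 0.929). Abhd6 was even over the High-Active saline mice, from 36.3 to 37.5 CPM, and ran from 35.5 to 44.7 in Control saline, 36.8 to 46.6 in Control amphetamine and 35.5 to 46.3 in High-Active amphetamine mice.

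Amphetamine changed none of the 8 genes past the threshold, as was true of all 14792 genes (0 called, or 0%) in edgeR's quasi-likelihood test with Benjamini-Hochberg adjustment. At an unadjusted p under 0.05 there were 3 of the 8 genes and 1844 of all genes (12.5%). These were Dagla, with a log2 fold change of 0.18 over both lines (SE 0.0722, adjusted p = 0.323 in edgeR's quasi-likelihood test), Faah with 0.22 (SE 0.0976, adjusted p = 0.377) and Abhd6 with 0.12 (SE 0.0525, adjusted p = 0.377). DESeq2 called 391 genes and edgeR's likelihood-ratio test 458, and neither included any of the 8. The estimates were positive for 7 of the 8 genes, most of which vary together over mice, and that of Napepld was -0.02 (SE 0.0994).

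Within the High-Active line the estimates of Faah and Dagla were larger than within Control, though edgeR's quasi-likelihood test called no gene in either line (0% of all genes in each). DESeq2 called 131 genes in High-Active and 6 in Control mice, and edgeR's likelihood-ratio test 280 and 45. Faah had a log2 difference of 0.38 between amphetamine and saline in High-Active mice (SE 0.138, adjusted p = 0.420 in edgeR's quasi-likelihood test) and 0.05 in Control mice (SE 0.138, adjusted p = 0.963). All 5 High-Active amphetamine mice lay above the High-Active saline median, and 3 of 5 above every saline mouse (exact permutation p = 0.0238, where 5 against 5 mice cannot go below 0.00794). edgeR's likelihood-ratio test with robust dispersions called this difference (0.42, adjusted p = 0.0821). Dagla had 0.26 in High-Active mice (SE 0.102, adjusted p = 0.467 in edgeR's quasi-likelihood test), with 4 of 5 amphetamine mice above every saline mouse (exact permutation p = 0.0556), and 0.10 in Control mice (SE 0.102, adjusted p = 0.888). Abhd6 had 0.16 (SE 0.0742, adjusted p = 0.559) and 0.07 (SE 0.0743, adjusted p = 0.888) in the same test. The 3 genes at an unadjusted p under 0.05 in the High-Active line, Faah, Dagla and Abhd6, stood beside 8.43% of all genes, and there was 0 of the 8 in the Control line, beside 6.35%.

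The response of the lines to amphetamine was not shown to differ for any of the 8 genes. The interaction of line and drug was largest for Faah at 0.33 on the log2 scale (SE 0.195, unadjusted p = 0.104 over 20 mice in edgeR's quasi-likelihood test), and 0 of the 8 genes passed an unadjusted p under 0.05, against 440 of all genes (2.97%). No gene of the 14792 was called for the interaction (0%) by edgeR's quasi-likelihood test or DESeq2, and edgeR's likelihood-ratio test called 6, none of them among the 8. The interactions of Cnr1 (-0.03, SE 0.239) and Mgll (-0.02, SE 0.163) were close to 0 with wide errors.

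**Figure D3:**
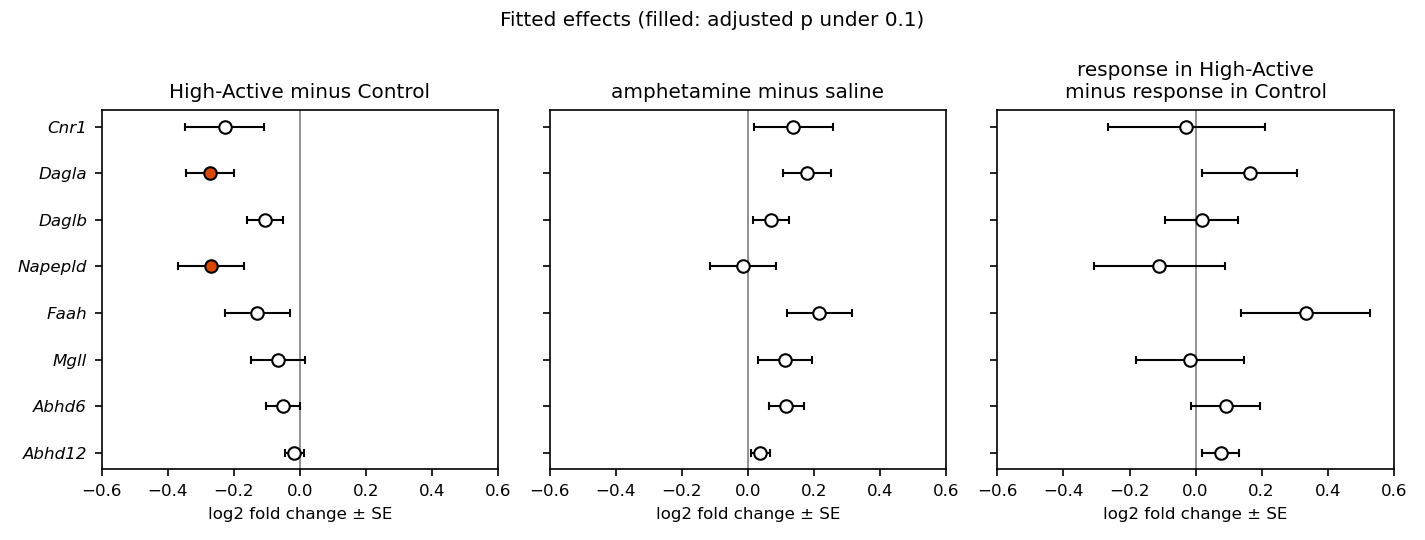
Fitted log2 fold change ± SE of the 8 genes for the line effect (left), the amphetamine effect (middle) and the interaction (right), with filled points at an adjusted p under 0.1 in edgeR's quasi-likelihood test. The filled points are Dagla and Napepld in the line effect, at -0.27 each, and there is none in the other panels.

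The design held 6 families with an amphetamine and a saline mouse, which allowed the drug to be compared between littermates, with the mean of both saline mice in the family that had 2. Dagla was higher in the amphetamine littermate in 5 of 6 families, with a mean log2 difference of 0.22 ± 0.304 (SD, n = 6, exact sign-flip permutation p = 0.156). Faah was likewise higher in 5 of 6, with 0.26 ± 0.361 (SD, n = 6, exact permutation p = 0.156). The other 6 genes were higher in 4 of 6 families each, with means from 0.04 for Mgll to 0.21 for Cnr1. No gene passed 0.05, and 6 pairs cannot go below 0.0313.

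**Figure D4:**
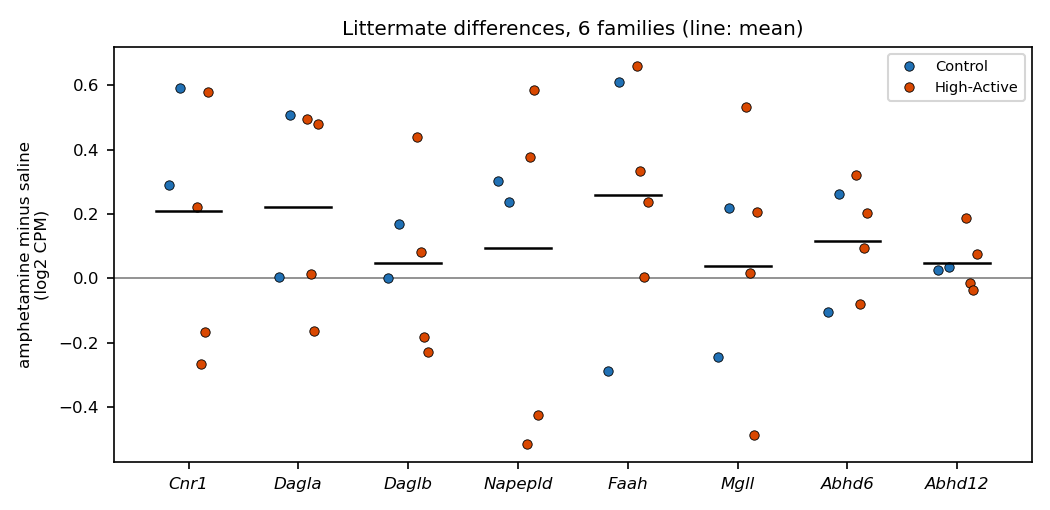
Log2 CPM of the amphetamine mouse minus that of its saline littermate for each gene, with 1 point for each of 6 families coloured by line and a line at the mean. Dagla and Faah are above 0 in 5 of 6 families, and every gene has at least 1 family below 0.

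Most of the 8 genes followed the cortical marker score of the mouse, and this score was lowest in the High-Active saline mice, as were the mean levels of all of the 8 genes but Napepld. The score is the mean over the 8 cortical markers of each gene's log2 CPM, centred on its mean over mice, and it averaged 0.11 ± 0.703 in Control saline, 0.66 ± 0.187 in Control amphetamine, -0.98 ± 0.532 in High-Active saline and 0.21 ± 0.852 in High-Active amphetamine mice (SD, n = 5 each). After the mean of each group was subtracted, Pearson's r with the score over the 20 mice was 0.85 for Mgll, 0.77 for Faah, 0.73 for Daglb, 0.67 for Abhd12, 0.65 for Abhd6 and 0.64 for Dagla, given as a description of libraries that share their depth scaling. Cnr1 had 0.10 with the cortical score and 0.52 with the score of striatal projection neurons, and Napepld had -0.50 and -0.51. Abhd6 also ran against the oligodendrocyte score (-0.77). The score of 7 interneuron markers was likewise lowest in High-Active saline mice, at -0.32 ± 0.206 against 0.06 ± 0.131 in Control saline, 0.17 ± 0.188 in Control amphetamine and 0.09 ± 0.160 in High-Active amphetamine mice (SD, n = 5 each). Its r was 0.67 with Abhd12, 0.64 with Faah, 0.56 with Abhd6 and 0.51 with Daglb, and its part in the differences was not tested. For the score of 4 choroid plexus markers, r ran from -0.59 with Abhd6 and -0.53 with Dagla to 0.40 with Napepld. The astrocyte score had -0.50 with Dagla and -0.49 with Cnr1. The part of these 2 scores was not tested either.

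With the cortical and oligodendrocyte scores as covariates, neither Dagla nor Napepld was called, and the line differences of the 2 genes moved in opposite directions. That of Dagla shrank to -0.12 (SE 0.074, adjusted p = 0.504 in edgeR's quasi-likelihood test), while that of Napepld grew to -0.39 (SE 0.118, adjusted p = 0.133), in a fit that called 338 genes in place of 2149. In the same test the unadjusted p of Napepld was 0.0042 with the covariates and 0.0143 without them. The line differences of Faah, Mgll, Abhd6 and Abhd12 turned positive in this fit, at 0.09, 0.14, 0.09 and 0.03, and none was called. The Faah difference between amphetamine and saline in High-Active mice, 0.38 without the covariates, was -0.01 with them (SE 0.129, adjusted p = 0.998 in edgeR's quasi-likelihood test), and that of Dagla was 0.06 (SE 0.114, adjusted p = 0.984). The 2 scores entered this fit together, so their separate parts cannot be told apart. The mean cortical score also differed between the groups, so it cannot be told apart from line and treatment. The part of cortical tissue in these differences was not tested.

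**Figure D5:**
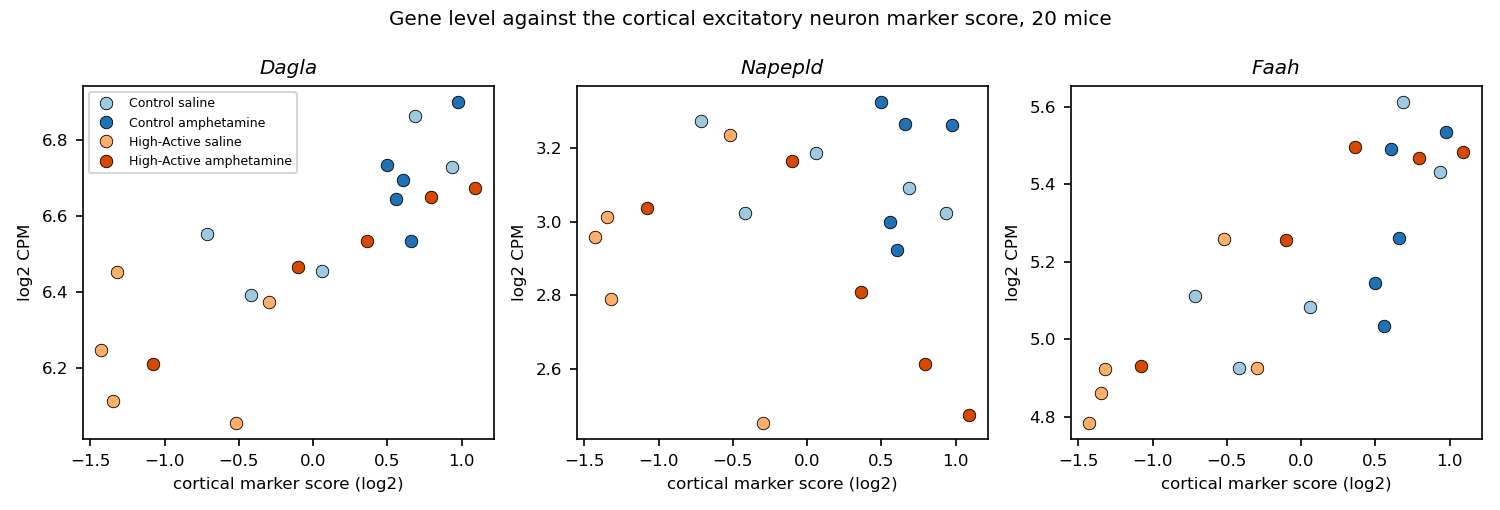
Log2 CPM of Dagla, Napepld and Faah against the cortical marker score (log2 units, centred on the mean over mice), 1 point for each of 20 mice coloured by group. Dagla and Faah are higher in mice with a higher score, whereas Napepld is not, and the lowest scores belong to High-Active saline mice, whose mean was -0.98.

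Most of the 8 genes also varied with one another, but Napepld ran against the others and Cnr1 followed only some of them. Over the 28 pairs, the correlation of deviations from the group means over 20 mice was positive in 21, and the 7 negative pairs were those of Napepld with each other gene, from -0.16 with Faah to -0.63 with Mgll. The strongest positive pair was Mgll with Abhd12 (0.64), and Dagla was closest to Faah (0.61). Positive pairs of Cnr1 ran from 0.03 with Mgll and 0.06 with Abhd6 to 0.50 with Dagla. By the same measure over all genes that passed the filter, Dagla was most like Acvr1, Fbxo41 and Atg9a (r from 0.91 to 0.94), and Napepld most like Kcnh2, St8sia4 and Tcf7l2 (0.87 to 0.88). Mgll was most like Fezf2 (0.95), which is 1 of the cortical markers, followed by Spag6 and Sult2b1. Cnr1 was nearest to Hecw2, Syndig1l and Ndfip2, Faah to Plch2, B3galt2 and Slc16a10, Daglb to Klhl40, Osbpl1a and Rab33a, Abhd6 to Lrrc59, Cbfa2t3 and Otub2, and Abhd12 to Btbd10, Coa5 and Kcnab2, with r between 0.83 and 0.90.

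Within lines, the level of each gene was set against the distance the mouse had travelled per day before the injection and against body mass, 32 relations of 10 mice each. Saline and amphetamine mice of a line were pooled with no term for treatment, although RNA was taken after the injection. The part of treatment in these relations was not tested. For Faah and distance, Pearson's r = 0.62 (permutation p = 0.0468) and Spearman's rho = 0.69 (permutation p = 0.0349) in Control mice and r = 0.55 (permutation p = 0.0400) and rho = 0.71 (permutation p = 0.0266) in High-Active mice. After Benjamini-Hochberg adjustment over the 32 relations the permutation p was 0.348 for each r and 0.262 for each rho, and without the 2 mice farthest from the median distance r was 0.52 and 0.38. In Control mice Dagla had r = 0.63 (permutation p = 0.0476, adjusted 0.348) and rho = 0.62 (permutation p = 0.0601, adjusted 0.275), with r = 0.35 without the 2 farthest mice. In the same line Abhd6 had r = 0.69 (permutation p = 0.0222, adjusted 0.348) and rho = 0.56 (permutation p = 0.0953, adjusted 0.339), and its r of 0.06 without those mice shows that the relation rested on them. In High-Active mice Abhd6 had r = 0.54 (permutation p = 0.1004, adjusted 0.448) and rho = 0.65 (permutation p = 0.0491, adjusted 0.262) with distance, and r = 0.68 without the 2 farthest mice.

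For body mass, the lowest p was that of Cnr1 in Control mice, with rho = 0.77 (permutation p = 0.0115, adjusted 0.262) and r = 0.49 (permutation p = 0.154, adjusted 0.448), and r = 0.71 without the 2 mice farthest from the median mass. Daglb had rho = 0.65 (permutation p = 0.0464, adjusted 0.262) and r = 0.55 (permutation p = 0.103, adjusted 0.448) in the same mice, with r = 0.38 without those 2. Faah had rho = 0.65 (permutation p = 0.0471, adjusted 0.262) and r = 0.62 (permutation p = 0.0543, adjusted 0.348), with r = 0.46 without them. No relation to distance or mass passed correction over the 32.

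Beyond the 8 genes, 45 further genes of the pathway were examined in 5 lists, of which 38 passed the filter on low counts. In the line effect 9 of the 38 were called, 3 higher and 6 lower in High-Active mice, beside 14.5% of all genes, and 0 were called for amphetamine (7 at an unadjusted p under 0.05) or the interaction (0 at that level) in edgeR's quasi-likelihood test. Of the other lipid receptors, 2 of 7 passed the filter and neither was called, the higher being the nuclear receptor Ppara at 2.32 CPM. The CB2 receptor gene Cnr2 was left untested, at 5 to 27 counts per mouse.

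Of the other enzymes of synthesis and breakdown, 5 of 11 tested were called. Naaa, which hydrolyses N-acylethanolamines in lysosomes, was lower in High-Active mice, at 19.9 ± 2.89 CPM against 26.4 ± 5.11 in Control mice (SD, n = 10 each), a log2 fold change of -0.41 (SE 0.102, adjusted p = 0.0213 in edgeR's quasi-likelihood test). The lysophospholipase D gene Gdpd3 had a mean of 2.21 ± 2.58 CPM against 7.22 ± 2.96, a log2 fold change of -1.77 (SE 0.527, adjusted p = 0.0466). Ddhd1, a phospholipase gene, was lower by a small margin (-0.11, SE 0.0383, adjusted p = 0.0773). Higher in the High-Active line were Abhd4, a hydrolase of the alternative route to anandamide, with 0.17 (SE 0.0512, adjusted p = 0.0456), and Pla2g4e, a calcium-dependent N-acyltransferase that makes the substrate of NAPE-PLD, with 0.80 (SE 0.263, adjusted p = 0.0658). Pla2g4e stood at 46.1 ± 3.14 CPM in High-Active mice and at 27.0 ± 13.9 in Control mice. Gde1, the most abundant of this list at 157 CPM, was not called (-0.08, adjusted p = 0.205).

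Of the partners of CB1 and the lipid carriers, 1 of 6 was called. Fabp5, a fatty acid binding protein that carries anandamide inside cells, had the smallest p of all 38 genes, at 34.8 ± 4.24 CPM in High-Active against 57.7 ± 8.48 in Control mice (SD, n = 10 each), a log2 fold change of -0.73 (SE 0.0885, adjusted p = 0.000129 in edgeR's quasi-likelihood test). The most abundant of the list, Gprasp1, stood at 777 CPM and was not called (0.06, adjusted p = 0.574). Of 11 genes of the Gq and phospholipase C pathway, which makes the substrate of diacylglycerol lipase, 2 were called: the muscarinic receptor gene Chrm1 was lower (-0.29, SE 0.0925, adjusted p = 0.0630) and Plcb4 higher (0.28, SE 0.0894, adjusted p = 0.0627), while the most abundant, the glutamate receptor gene Grm5 at 355 CPM, was not called. Of 8 genes downstream of CB1 through Gi/o, the adenylyl cyclase gene Adcy1 was lower (-0.49, SE 0.151, adjusted p = 0.0551), and the most abundant, Adcy5 at 1001 CPM, was not called (-0.15, adjusted p = 0.258).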

How the data were processed

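Paired-end 100 bp RNA-seq libraries of striatum from 20 mice were counted per gene by the authors. The submitters' processing notes name CASAVA 1.8.2, TopHat2 2.0.10, Bowtie2 2.1.0, SAMtools 0.1.19 and HTSeq 0.6.1, with the builds GRCm38 and mm10. The deposited values are raw read counts per Ensembl gene, with no normalization. HTSeq's rows that name no gene held 15.97 to 17.49% of counts and were left out of library sizes. Symbols, positions and exon lengths came from GENCODE M21 (37607 of 39179 identifiers matched), which is not the authors' annotation. Exon lengths merged the exons of all transcripts of a gene. RPKM values are approximate for both reasons. Start-site windows came from RefSeq. No 2 of the 190 pairs of libraries were identical.

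Genes over 1 CPM in at least 3 mice (14792) were fitted in edgeR 4.0.16 (R 4.3.3) with TMM factors, a mean for each of the 4 groups and glmQLFit and glmQLFTest. A gene was called at a Benjamini-Hochberg adjusted p under 0.1 over all genes tested. The contrasts were line, amphetamine, their interaction, and each effect within the other's groups. CPM values use TMM library sizes, and log2 CPM a prior count of 2. Single genes were also compared by two-sided permutation tests (scipy 1.17.1), exact for 5 against 5 and for littermates and with 100000 resamples for 10 against 10. The tests of 5 against 5 and 10 against 10 took littermates as independent mice, and those of 10 against 10 ignored treatment. Littermates share sire and dam. The quasi-likelihood, DESeq2 and limma-voom fits were tested on simulated counts for the line effect only, with no family differences simulated. The other fits, contrasts and permutation tests were not tested in this way. At the lowest depth, a count of 0 allows up to 9.26e-06% of counts (3 counts), and this floor covers counting error only.

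The 8 genes, the pathway lists and the marker lists were chosen with earlier results of these data known. Named from each pathway list were the called genes, up to 4 in order of p, and the gene with the highest CPM, and for each of the 8 genes the 3 most correlated genes. Cnr2 and Ddhd1, the fifth called gene of its list, were named outside this rule, after their values were seen. Alternatives were DESeq2 1.42.0, edgeR's likelihood-ratio test with robust dispersions, RLE factors, no filter and a filter of 5 mice, limma-voom (limma 3.58.1) with a family block, marker scores as covariates, counts summed per family, family as a fixed block, other prior counts and library sizes, and leaving out each mouse. The fit of counts summed per family compared the lines with no term for treatment.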

Additional observations from a re-analysis of the deposited data

How the results depend on the processing

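In the line effect, 2 of the 8 genes were called in the fit reported, and 1 with RLE factors, with no filter on low counts, with a filter of 5 mice and with counts summed per family. With the cortical and oligodendrocyte scores as covariates 0 were called, and leaving out each mouse gave 1 to 2. Dagla was called in all 20 of those fits (adjusted p 0.0199 to 0.0567, edgeR's quasi-likelihood test), but Napepld was lost in 16 of 20 (0.0597 to 0.148), and kept its call without High-Active saline replicate 1, High-Active amphetamine replicate 3 or Control amphetamine replicate 1 or 5. With 1 library per family and no term for treatment it was Dagla that was lost (-0.22, adjusted p = 0.130) and Napepld that was called (-0.29, adjusted p = 0.0971). edgeR's likelihood-ratio test called Dagla and Cnr1 (-0.24, adjusted p = 0.0706) and not Napepld (adjusted p = 0.111). In saline mice alone 1 gene was called, Dagla, and 0 with no filter, 0 with the covariates and 0 to 1 without single mice (0 without High-Active saline replicate 1, 3 or 4, Control saline replicate 1 or 5 or Control amphetamine replicate 3, with adjusted p up to 0.227). Faah in the High-Active line was called for amphetamine by edgeR's likelihood-ratio test only (1 gene, 0.42, adjusted p = 0.0821). For the line difference of Daglb, the permutation p was 0.0611 over all mice and 0.0132 to 0.111 without single mice. That of Cnr1 was 0.105 and 0.0226 to 0.187. The cause of these changes was not tested.

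With the covariates, the line differences of Faah (0.0859), Mgll (0.138), Abhd6 (0.0858) and Abhd12 (0.0269) became positive, as did those of Faah (0.0353), Abhd6 (0.0555), Mgll (0.24, unadjusted p = 0.00878), Daglb (0.0346) and Abhd12 (0.00957) in saline mice and of Abhd6 (0.116) and Mgll (0.0384) in amphetamine mice. The amphetamine estimates became negative for Daglb (-0.0888), Faah (-0.0580), Mgll (-0.113) and Abhd12 (-0.0168), for Faah in Control (-0.109) and in High-Active mice (-0.00739), for Mgll in Control (-0.0131) and in High-Active mice (-0.21, unadjusted p = 0.0255), for Daglb in Control (-0.0318) and in High-Active mice (-0.15), and positive for Napepld (0.16, and 0.18 in High-Active mice). The interactions of Daglb (-0.11) and Napepld (0.0274) changed sign too. edgeR's likelihood-ratio test turned the interactions of Cnr1 (0.0131) and Mgll (0.0361) and the Abhd6 line difference in amphetamine mice (0.000275). None of these estimates was called in either fit.

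Leaving out single mice gave estimates of both signs for the amphetamine effect of Napepld (-0.0637 to 0.0360 over both lines, -0.00187 to 0.0963 for Control, -0.165 to 0.0293 for High-Active) and of Faah in Control mice (-0.0201 to 0.158), for the line difference in amphetamine mice of Faah (-0.0237 to 0.123) and Abhd6 (-0.0463 to 0.0453), and for the interactions of Cnr1 (-0.17 to 0.11), Daglb (-0.0336 to 0.0700) and Mgll (-0.0925 to 0.0862). Leaving out single families did so for the littermate differences of Daglb (-0.0317 to 0.102), Napepld (-0.00442 to 0.215) and Mgll (-0.0580 to 0.145). The relation of Napepld to body mass in High-Active mice was -0.0070, and 0.0020 without TMM factors.

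Over all genes, the line effect called 2149, but 338 with the covariates, 609 with counts summed per family and 1381 to 2535 without single mice. In saline mice alone it called 553, against 1111 by DESeq2, 1091 by the likelihood-ratio test, 58 with the covariates and 187 to 691 without single mice. In amphetamine mice the counts were 193, 462, 506, 54 and 79 to 200. Amphetamine called 0 genes, against 391 and 458 by DESeq2 and the likelihood-ratio test and up to 339 without single mice. In Control mice these were 0, 6, 45 and up to 3, and in High-Active mice 0, 131, 280 and up to 68. The interaction called 0, against 6 by the likelihood-ratio test and up to 1 without single mice. Replicate numbers were given in accession order and pair nothing. With family as a fixed block in the 13 mice of families with both treatments, the amphetamine estimate was 0.24 for Dagla and 0.29 for Faah (adjusted p = 0.775 each, edgeR's quasi-likelihood test), turned positive for Napepld (0.0724), and 0 genes were called. No paired analysis by replicate number was possible because the labels give none.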
